A study of Mus musculus with 6 samples.

Results

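The fatty acid desaturase and elongase genes *Scd1*, *Scd2*, *Fads1*, *Fads2*, *Fads3*, *Elovl1*, *Elovl4*, *Elovl5*, *Elovl6* and *Elovl7* were followed in LECs, cultured mouse lung ECs, with and without ATGL. The members were listed by gene symbol and chosen with the CPM difference between the genotypes known, so their fold changes are given as a description with standard errors and no p. Calls of members in the limma fit over all genes are counted only beside the share of all genes called, and are no evidence on the members. They are 10 of the 20409 gene symbols in the table, and all 10 were among the 12837 genes tested. Each of them was present in both genotypes, the lowest value of any library being 3.23 CPM (CPM, the reads of a gene scaled to a common library total).

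Fatty acid desaturases are enzymes of the endoplasmic reticulum that place a double bond in an acyl-CoA chain, with electrons handed on by cytochrome b5. Stearoyl-CoA desaturases, the products of the *Scd* genes, turn palmitate and stearate into palmitoleate and oleate, and oleate is a main acyl chain of stored triglyceride. The products of *Fads1* and *Fads2* act on polyunsaturated chains on the way to arachidonate and docosahexaenoate. Elongases of the ELOVL family carry out the condensation that opens each cycle of chain lengthening, each with its own range of substrates. ATGL, encoded by *Pnpla2*, releases fatty acids from the triglyceride of lipid droplets.

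The bulk RNA-Seq libraries number 6, all from untreated LECs, 3 from control mice (*Atgl* fl/fl) and 3 from *Atgl* ECKO mice, in which *Cdh5*-Cre deletes the floxed gene in ECs. Both kinds of LECs were selected with CD31, immortalized with the middle T antigen and cultured in EGM-2 with 20% FBS, so all values are those of immortalized lines in serum. The labels give neither age nor sex, although the methods state that male mice were used throughout, nor do they tell if the replicates were separate animals or cultures. The p-values therefore cover the spread among these libraries alone, and that spread could be technical. Because the libraries are bulk RNA, a lower level cannot be told apart from fewer cells that express the gene.

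By the step between the lowest values, 1 CPM rested on an estimated 55.6 to 69.0 reads of a library. *Pnpla2* had 27.6, 26.3 and 30.1 CPM in the control libraries and 9.97, 9.11 and 9.13 CPM in the *Atgl* ECKO libraries, which left 33.6% of the control level (log2 fold change -1.48, standard error 0.05, adjusted p = 1.84e-12 from limma). The difference could reach no less than p = 0.1 in a two-sided exact permutation test of 3 libraries against 3, and had that value. Of the 12 endothelial markers examined all were expressed, with *Pecam1* at 896 to 1175 CPM and *Cdh5* at 1953 to 2149 CPM over the 6 libraries, and they went in both directions, 5 called higher, among them *Cldn5* (control mean 29.02 CPM, *Atgl* ECKO mean 111 CPM) and *Robo4* (control mean 117 CPM, *Atgl* ECKO mean 197 CPM), and 3 lower, namely *Tek*, *Tie1* and *Kdr* (log2 fold changes -0.53, -0.33 and -0.23). The adipocyte marker *Adipoq* and the epithelial markers *Epcam*, *Cdh1* and *Sftpb* stayed below 0.1 CPM, while the epithelial marker *Ager* had 0.869 to 1.18 CPM in control and 1.18 to 1.70 CPM in *Atgl* ECKO libraries (log2 fold change 0.30, adjusted p = 0.0133 from limma). The leukocyte markers summed to 20.2 to 23.0 CPM in control and 63.7 to 75.04 CPM in *Atgl* ECKO LECs, most of it *Cd68* (16.9 to 19.6 and 60.4 to 71.1 CPM), with *Laptm5* at 2.46 to 3.404 CPM over the 6 libraries and *Itgam*, *Cd79a* and *Lyz2* at 0.583 CPM or less, and the markers of fibroblasts, smooth muscle and pericytes to 158 to 176.9 CPM in control and 107 to 127 CPM in the other libraries, nearly all of it *Acta2*. The part of these markers in the values of the members was not tested. The Y chromosome gene *Ddx3y*, named after its values were seen, had 94.0 to 98.1 CPM in control and 0.924 to 1.24 CPM in *Atgl* ECKO LECs, so the libraries of the 2 genotypes also differ in Y-linked RNA, and that difference cannot be told apart from the genotype. *Xist*, the RNA of the inactive X chromosome, was below 0.1 CPM in all 6 libraries. Between the third *Atgl* ECKO library and the first and second, the mean chi-square per gene was 29.5 and 19.6, against 4.14 between those. Such a mean can rest on few genes, and *CT010467.1* read 25942 CPM in the third against 12011 and 13760 CPM in the others. Correlations of log2(CPM + 1) over tested genes were 0.99864 and 0.99899 with the third and 0.99883 between the first and second. By correlation the third library thus did not stand apart. Leaving out the third *Atgl* ECKO library turned the direction of no member, and its effect on *Elovl5* is given below.

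The 5 desaturase genes were higher in every *Atgl* ECKO library than in every control library, by 1.49-fold to 7.28-fold. The 5 elongase genes went in both directions, with *Elovl6* above, *Elovl1*, *Elovl4* and *Elovl7* below, and *Elovl5* overlapping. Thus 6 of the 10 members lay above and 3 below without overlap, while 35.3% of all tested genes lay above and 37.8% below. In the limma fit 6 members were called higher and 3 lower at an adjusted p under 0.05, while 34.2% of all tested genes were called higher and 36.2% lower. Their median log2 fold change was 0.50, and that of all tested genes was -0.01. The 5 desaturase genes lie on chromosome 19, whose own median was 0.41. Since the members were chosen on this contrast, nothing is read from their counts or their median.

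**Figure D1:**
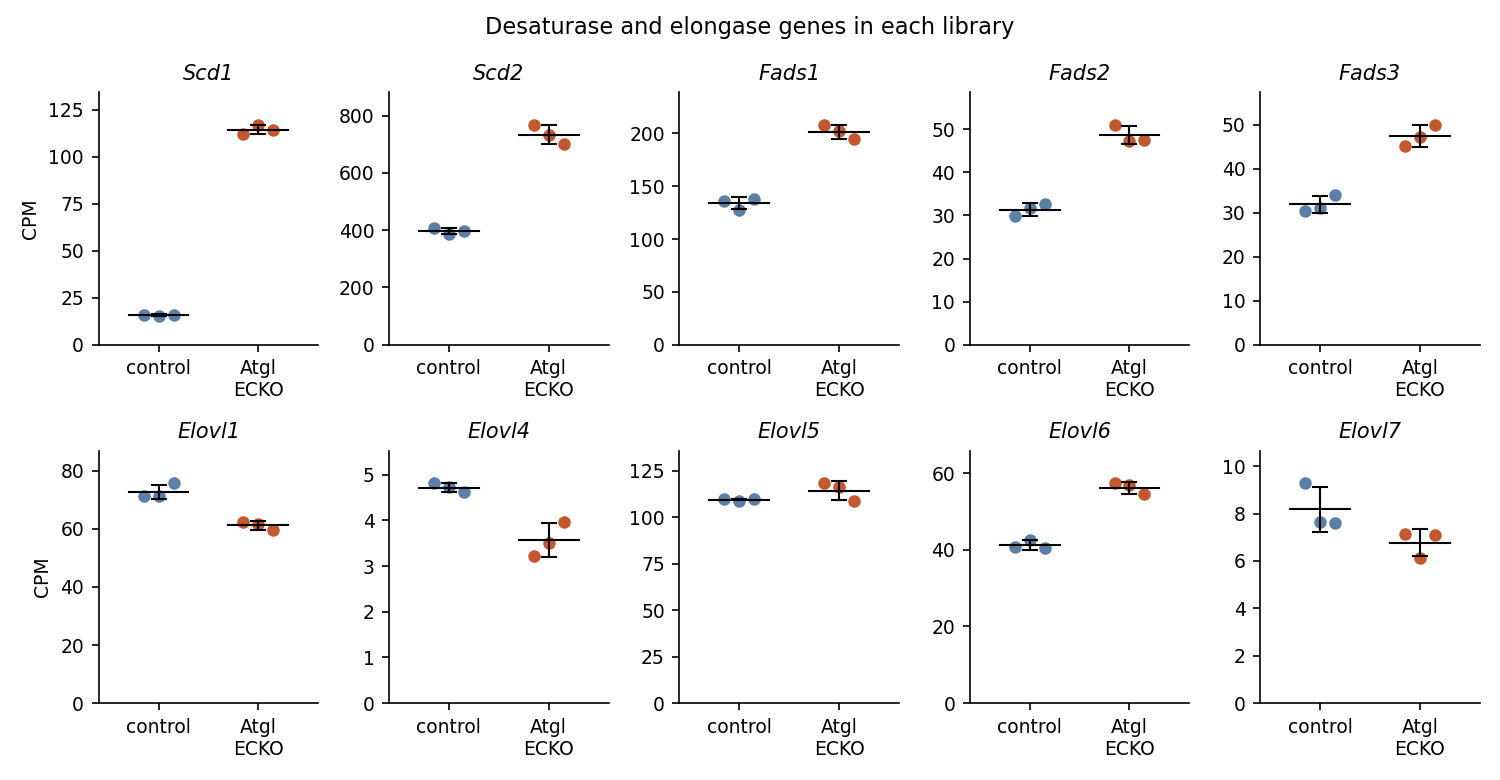
CPM of the 10 members in each library, with control LECs in blue and *Atgl* ECKO LECs in orange. Points are libraries, lines are means and bars are SDs (n = 3), each vertical axis starts at 0, and the *Elovl5* points of the 2 groups overlap while those of the other 9 genes do not.

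*Scd1* had the highest fold change of the members. *Scd1* read 16.04, 15.2 and 15.9 CPM in the control libraries and 112, 117 and 114 CPM in the *Atgl* ECKO libraries. The *Atgl* ECKO libraries lay far above the control libraries, and both groups were tight. The mean went from 15.7 ± 0.447 to 114 ± 2.39 CPM (SD, n = 3 each), a ratio of 7.28 and a log2 fold change of 2.79 (standard error 0.04) on log2(CPM + 1). Over all 12837 tested genes this fold change ranked 17th from the top.

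*Scd2*, the stearoyl-CoA desaturase gene that is widely expressed outside the mouse liver, was the most abundant member in both genotypes. *Scd2* read 406, 385 and 396 CPM in the control libraries and 768, 732 and 702 CPM in the *Atgl* ECKO libraries. Every *Atgl* ECKO library was above every control library, and the ratio of the means (396 ± 10.5 and 734 ± 32.9 CPM, SD, n = 3 each) was 1.85 (log2 fold change 0.89, standard error 0.04). In reads, *Scd2* made up 62.3% and *Scd1* 18.2% of the 543 CPM by which the summed members were higher in *Atgl* ECKO LECs. Together the pair read 412 ± 10.9 CPM in control against 848 ± 31.9 CPM in *Atgl* ECKO LECs (SD, n = 3 each).

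The balance of the pair within a library does not depend on how that library was scaled. *Scd1* took 3.80%, 3.80% and 3.86% of the reads of *Scd1* plus *Scd2* in the control libraries and 12.7%, 13.8% and 14.0% in the *Atgl* ECKO libraries. The shares of the groups lay wide apart, so *Scd1* and *Scd2* did not change in proportion, although *Scd2* still had 6.42 ± 0.376 times the reads of *Scd1* (SD, n = 3) in *Atgl* ECKO LECs. The transcripts of both genes share 145 of their 50-base stretches, and 4.66% of such stretches of *Scd1* and 4.01% of those of *Scd2* also occur in another gene. Part of their reads could thus be assigned to either. In control LECs *Scd2* had 25.2 ± 0.235 times the reads of *Scd1* (SD, n = 3), so *Scd2* reads assigned to *Scd1* would weigh most on its control values. Their part in the share and the ratio of *Scd1* was not tested. The paralogues *Scd3* and *Scd4* lay below the filter, at no more than 0.0796 and 0.184 CPM in any library.

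**Figure D2:**
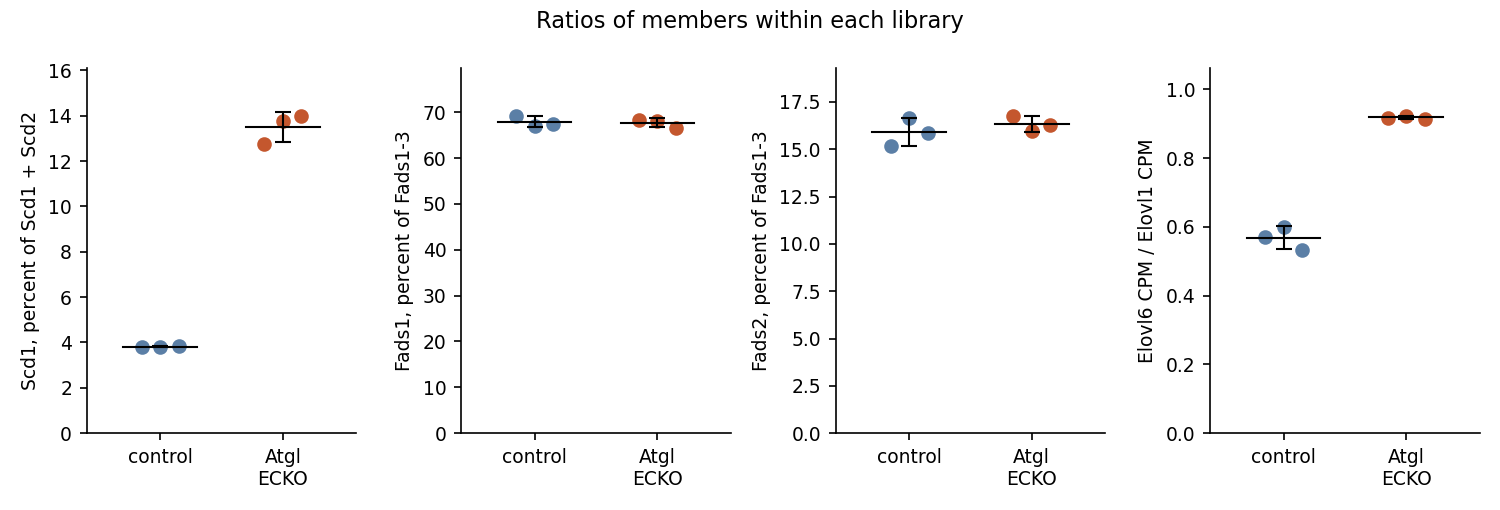
Ratios between members within each library, which a rescaling of the library leaves as they are, with control LECs in blue and *Atgl* ECKO LECs in orange. Points are libraries, lines are means and bars are SDs (n = 3); the *Scd1* share (percent of reads) and the *Elovl6* to *Elovl1* ratio separate the groups, and the shares of *Fads1* and *Fads2* (percent of reads) overlap.

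The *Fads* genes were higher in *Atgl* ECKO LECs by nearly the same factor. *Fads1*, which encodes the last desaturase before arachidonate, read 136, 128 and 138 CPM in the control libraries and 208, 202 and 195 CPM in the *Atgl* ECKO libraries (log2 fold change 0.59, standard error 0.04). *Fads2*, which encodes the desaturase that opens the pathway, read 29.8, 31.7 and 32.6 CPM in control against 51.0, 47.3 and 47.6 CPM in *Atgl* ECKO libraries (log2 fold change 0.62, standard error 0.04). *Fads3*, whose product acts on sphingoid bases of ceramide, read 30.5, 31.1 and 34.2 CPM in control against 45.1, 47.3 and 49.97 CPM in *Atgl* ECKO libraries (log2 fold change 0.56, standard error 0.05). In each of these genes the groups were apart, and the ratios of the means were 1.505, 1.55 and 1.49 in that order.

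The 3 *Fads* genes lie side by side on chromosome 19 and kept their proportions. *Fads1* took 67.9% ± 1.19 of their summed reads in control and 67.7% ± 0.957 in *Atgl* ECKO LECs (SD, n = 3 each), and the libraries of the groups overlapped. The share of *Fads2* was 15.9% ± 0.731 and 16.3% ± 0.417, and that of *Fads3* 16.2% ± 0.569 and 15.96% ± 1.14 (SD, n = 3 each), again with overlap. Their sum was 197 ± 7.39 CPM in control against 298 ± 6.03 CPM in *Atgl* ECKO LECs (SD, n = 3 each). *Fads6*, a further gene of the family, stayed at or below 0.211 CPM in every library.

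To show what lies ahead of genes that were higher together, the 250 bases before the start of *Fads2*, *Fads3* and *Elovl6* are printed from RefSeq (GRCm38.p6), 5′ to 3′ on the gene's strand, with matches to CCAAT or GGGCGG on either strand in capitals.
*Fads2*, chr19:10101504-10101753, minus strand: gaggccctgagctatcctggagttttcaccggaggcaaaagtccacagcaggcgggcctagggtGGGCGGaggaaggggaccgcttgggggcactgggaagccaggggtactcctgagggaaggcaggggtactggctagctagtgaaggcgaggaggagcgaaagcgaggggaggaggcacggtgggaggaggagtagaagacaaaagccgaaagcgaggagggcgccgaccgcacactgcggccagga
*Fads3*, chr19:10041298-10041547, plus strand: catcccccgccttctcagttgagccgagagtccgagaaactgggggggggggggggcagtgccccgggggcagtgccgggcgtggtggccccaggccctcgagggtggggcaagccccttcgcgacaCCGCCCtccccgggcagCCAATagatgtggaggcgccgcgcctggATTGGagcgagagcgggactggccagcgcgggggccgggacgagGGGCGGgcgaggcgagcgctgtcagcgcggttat
*Elovl6*, chr3:129532136-129532385, plus strand: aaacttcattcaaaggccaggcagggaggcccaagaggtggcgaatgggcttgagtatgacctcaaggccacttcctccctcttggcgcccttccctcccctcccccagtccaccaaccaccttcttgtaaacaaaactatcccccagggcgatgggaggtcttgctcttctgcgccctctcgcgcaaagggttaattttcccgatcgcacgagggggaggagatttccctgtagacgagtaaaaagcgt
The searched letters were TCACNNCAC, which resembles a sterol regulatory element, the CCAAT box and the GC box GGGCGG, which share no bases with each other in the printed windows. *Fads3* held 2 CCAAT and 2 GC boxes, *Fads2* held 1 GC box and *Elovl6* held none of them. RefSeq windows were at hand for 7 of the 10 members, 8 windows in all since *Elovl1* has 2 starts (in 1 of its windows a CCAAT shares bases with a GC box). No window was at hand for *Scd1*, *Scd2* and *Fads1*, so these were not searched. TCACNNCAC was in none of the 8 windows, while 3.11% of 32851 mouse promoter windows of that length held it. At so low a share, its absence from 8 windows is no evidence on these genes. CCAAT was in 33.9% and GGGCGG in 32.7% of all windows. The build of the deposited values is not settled, so these positions belong to RefSeq and not to the deposited table.

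*Elovl6*, whose product lengthens palmitate to stearate and so makes substrate for the *Scd* enzymes, was the elongase gene higher in *Atgl* ECKO LECs. *Elovl6* read 40.8, 42.7 and 40.4 CPM in the control libraries and 57.3, 56.8 and 54.4 CPM in the *Atgl* ECKO libraries, without overlap (ratio 1.36, log2 fold change 0.44, standard error 0.04). In its transcript 4.40% of the 50-base stretches occur in other genes, most of them in *Gm11295*. *Elovl5*, which lengthens the products of *Fads2*, read 109.6, 108.9 and 109.7 CPM in control against 118, 116 and 108.6 CPM in *Atgl* ECKO libraries. The third *Atgl* ECKO library lay below every control library and the other 2 above them, and the log2 fold change was 0.06 (standard error 0.03). Without that library it was 0.10. With all libraries it was 0.07 after rescaling by median ratios, 0.09 after quantile normalization and 0.16 after removal of chromosome medians.

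The remaining elongase genes, which serve long and very long chains, were slightly lower. *Elovl1*, which serves saturated very long chains such as those of sphingolipids, read 71.4, 71.2 and 75.6 CPM in control against 62.5, 61.5 and 59.5 CPM in *Atgl* ECKO libraries (log2 fold change -0.25, standard error 0.03). *Elovl4*, needed for ultra-long chains in retina and skin, read 4.81, 4.73 and 4.62 CPM in control against 3.23, 3.50 and 3.96 CPM in *Atgl* ECKO libraries (log2 fold change -0.33, standard error 0.07). *Elovl7*, the relative of *Elovl1*, read 9.27, 7.66 and 7.61 CPM in control against 7.12, 6.11 and 7.10 CPM in *Atgl* ECKO libraries (log2 fold change -0.24, standard error 0.08). The first control library of *Elovl7* stood above its group, and without it the log2 fold change was -0.15. That fold change was -0.17 without the second *Atgl* ECKO library and -0.12 after removal of chromosome medians. The 5 elongase genes summed to 236 ± 1.44 CPM in control against 242 ± 7.57 CPM in *Atgl* ECKO LECs (SD, n = 3 each). *Elovl2*, which takes polyunsaturated chains beyond the reach of *Elovl5*, was at or below 0.0906 CPM in every library, and *Elovl3* and *Fads2b* were not analysed here.

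Within a library the elongase genes shifted against each other. *Elovl6* had 0.568 ± 0.0330 times the reads of *Elovl1* in control and 0.919 ± 0.00459 times in *Atgl* ECKO LECs (SD, n = 3 each), and against *Elovl5* the ratio went from 0.377 ± 0.0127 to 0.492 ± 0.00839 (SD, n = 3 each). Neither pair of ranges overlapped.

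To compare levels between genes, CPM was divided by the length of the principal GENCODE M21 transcript in kilobases, which assumes that this transcript is the one expressed. In control LECs *Scd2* led with 72.6 ± 1.92 CPM per kilobase, and *Elovl1* (40.2 ± 1.38), *Elovl5* (39.3 ± 0.155) and *Fads1* (38.7 ± 1.62) followed with overlapping libraries (SD, n = 3 each). *Fads2* (9.96 CPM per kilobase), *Fads3* (8.65), *Elovl6* (6.94), *Scd1* (3.25), *Elovl7* (2.04) and *Elovl4* (1.57) came after them, each apart from the next. In *Atgl* ECKO LECs *Scd2* was at 135 ± 6.04 CPM per kilobase and *Fads1*, at 58.3 ± 1.94, stood apart above *Elovl5* (41.1 ± 1.81) and *Elovl1* (33.8 ± 0.839), all SD with n = 3. *Scd1* stood 8th of the members in control LECs and 5th in *Atgl* ECKO LECs, at 23.7 ± 0.494 CPM per kilobase (SD, n = 3).

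All 5 desaturase members lie on chromosome 19, whose genes were shifted as a whole. Of 434 tested genes of chromosome 19, 351 (80.9%) were called higher and 38 lower, and the median log2 fold change of its 368 genes averaging 5 CPM or more was 0.41, the second highest of 21 chromosomes. Relative to that median the members were higher by 2.38 (*Scd1*), 0.48 (*Scd2*), 0.21 (*Fads2*), 0.18 (*Fads1*) and 0.15 (*Fads3*) on the log2 scale. Among the tested genes of the chromosome *Scd1* ranked 1st and *Scd2* 36th by fold change, and the *Fads* genes ranked 78th, 87th and 97th.

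**Figure D3:**
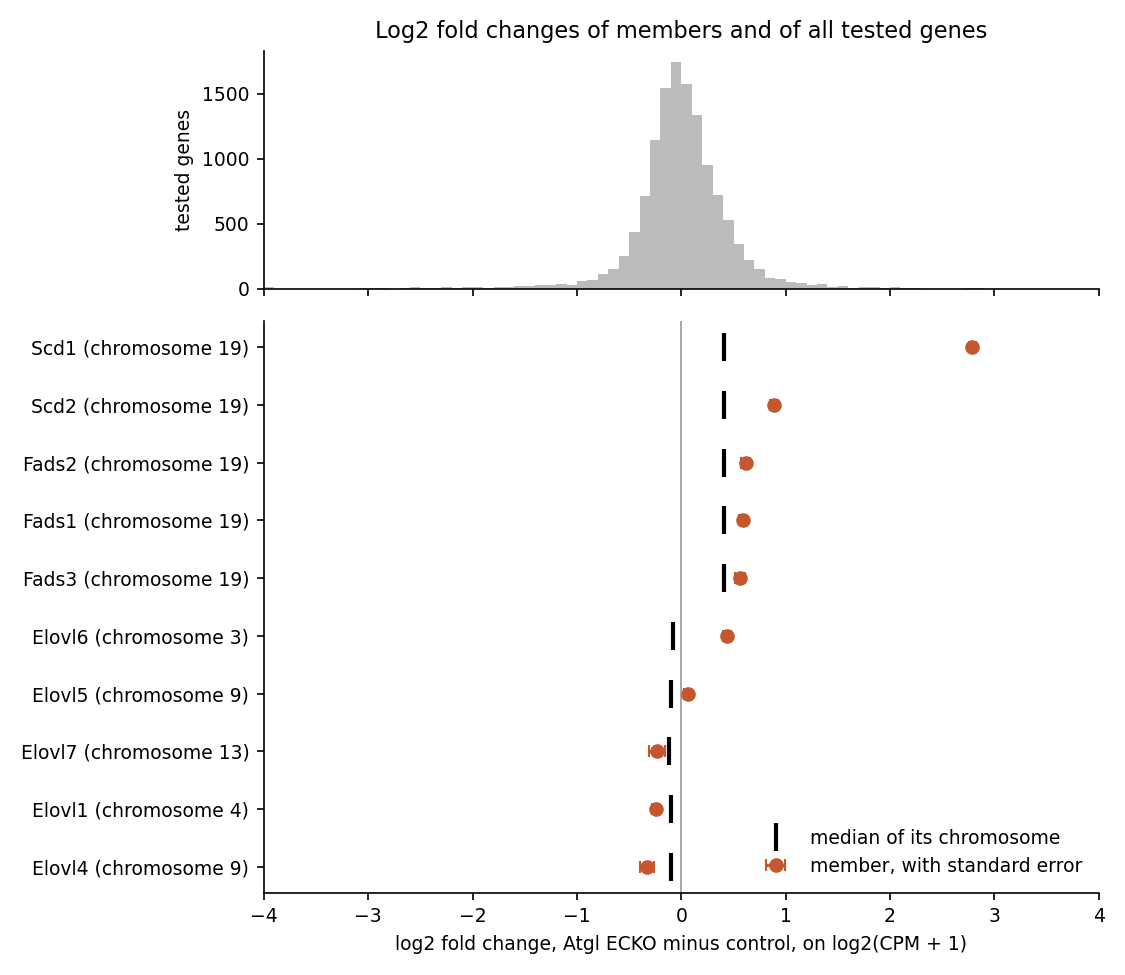
Log2 fold changes (*Atgl* ECKO minus control, on log2(CPM + 1)) of the 10 members, with standard errors (limma) beside the median of each member's chromosome as a black bar, under a histogram of all 12837 tested genes with values beyond the axis placed in the end bins. The desaturase members lie to the right of the chromosome 19 median (0.41), by 2.38 for *Scd1* and by 0.15 for *Fads3*.

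Neighbors within 1 Mb moved much as the chromosome did. Around the *Scd* genes 17 of 20 tested neighbors were called higher and 2 lower (median log2 fold change 0.34, range -2.88 to 0.70). The lowest, *Nkx2-3* (control mean 6.525 CPM and *Atgl* ECKO mean 0.021 CPM), passed the filter only through the control libraries. Counted among the 17 is *Sema4g* (control mean 0.931 CPM and *Atgl* ECKO mean 1.63 CPM), which passed it only through the *Atgl* ECKO libraries. None of the 20 reached the fold change of *Scd2* or *Scd1*. The nearest tested genes were *Bloc1s2*, encoding a subunit of lysosome-related organelle complexes (0.62, standard error 0.05, adjusted p = 1.29e-08 from limma), and *Ndufb8* of respiratory complex I (0.19, standard error 0.04, adjusted p = 0.000257 from limma). Around the *Fads* genes 18 of 25 tested neighbors were called higher and 5 lower (median 0.41, range -0.70 to 0.79), 3 of them above the fold change of *Fads3* and 2 above that of *Fads2*. Among the 5 lower there, *Slc15a3* (control mean 1.20 CPM and *Atgl* ECKO mean 0.834 CPM) passed the filter only through the control libraries. There the nearest tested genes were *Rab3il1*, a Rab exchange factor gene (log2 fold change -0.42, with a control mean of 1.46 and an *Atgl* ECKO mean of 0.829 CPM, so that it passed the filter only through the control libraries), as well as the predicted gene *Gm10143* (0.43, standard error 0.08, adjusted p = 0.00021 from limma). What lies behind the chromosome-wide shift was not tested.

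**Figure D4:**
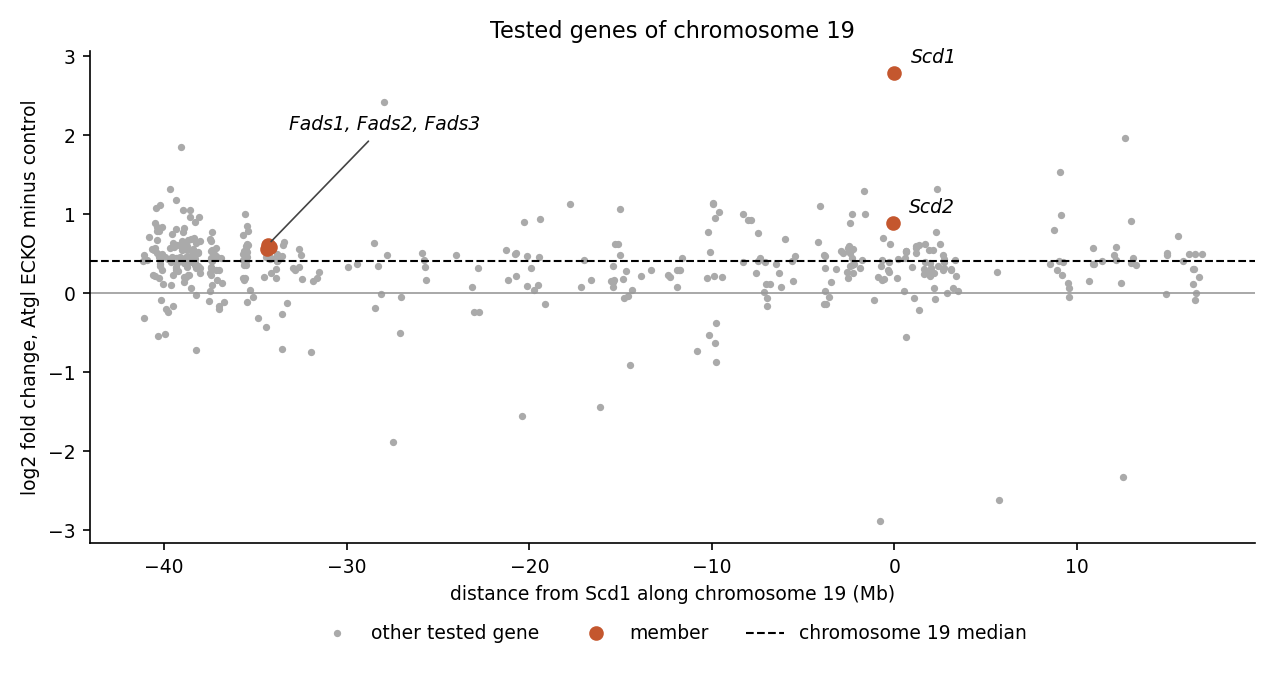
Log2 fold change (*Atgl* ECKO minus control) of the 434 tested genes of chromosome 19 against their distance from *Scd1* in Mb, with the members in orange and the chromosome median of 0.41 as a dashed line. *Scd1* is the highest point, and the 3 *Fads* genes lie within the cloud of other genes.

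The elongase members lie on chromosomes 3, 4, 9 and 13, whose medians were between -0.12 and -0.08. Relative to these medians *Elovl6* was higher by 0.52 on the log2 scale, and *Elovl1*, *Elovl4* and *Elovl7* stood at -0.14, -0.23 and -0.12. None of the 7 tested neighbors of *Elovl6* within 1 Mb reached its fold change, while 17 of 30 tested neighbors of *Elovl1* were called lower (median -0.19). Counted among these 17 are *Ptprf* (control mean 1.87 CPM and *Atgl* ECKO mean 0.651 CPM) and *Cfap57* (1.70 and 0.531 CPM), which passed the filter only through the control libraries.

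In the rest of the pathway, 27 of 56 tested genes were called higher in *Atgl* ECKO LECs, 18 lower and 11 neither, with a median log2 fold change of 0.10. Genes that supply saturated chains and sterol desaturases were mostly higher, and peroxisomal genes of chain shortening mostly lower. The lists were compiled by function, with earlier results of these data known, and their counts are a description beside the shares of all tested genes given above.

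The condensation of the ELOVL enzymes is followed by a reduction, a dehydration and a second reduction. The first reductase gene, *Hsd17b12*, went from 134 ± 1.67 to 146 ± 2.90 CPM (SD, n = 3 each; log2 fold change 0.13, adjusted p = 0.00126 from limma). Of the dehydratase genes, *Hacd1* (-0.39, adjusted p = 4.83e-05 from limma) and *Hacd3* (-0.19, adjusted p = 0.00283 from limma) were lower, and *Hacd2* and *Hacd4* were not called. The gene of the second reductase, *Tecr*, had a log2 fold change of 0.11 with adjusted p = 0.0393 from limma, a call that 8 of 16 alternatives did not keep. Thus 2 of 6 partners were called higher and 2 lower, with a median of 0.01.

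Of the electron donors, 3 of 5 tested genes were called higher and 1 lower. *Cyb5a*, which encodes the cytochrome b5 of the endoplasmic reticulum, read 142, 135 and 142 CPM in control against 97.6, 95.6 and 91.4 CPM in *Atgl* ECKO libraries (log2 fold change -0.55, standard error 0.03, adjusted p = 6.82e-10 from limma). The groups were apart, and the direction was opposite to that of the desaturase members. *Cyb5b*, of the mitochondrial outer membrane, was higher (0.17, adjusted p = 0.000112 from limma), as was the reductase gene *Cyb5r3* (0.19, adjusted p = 0.00052 from limma).

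Other membrane desaturases and oxidases of the same kind were called higher in 3 of 4 tested genes. *Msmo1*, a sterol oxidase gene of cholesterol synthesis, read 62.3, 63.4 and 65.0 CPM in control against 116, 113 and 106 CPM in *Atgl* ECKO libraries, without overlap (log2 fold change 0.80, standard error 0.04, adjusted p = 1.79e-11 from limma). *Sc5d*, a sterol desaturase gene (0.35, adjusted p = 8.29e-07 from limma), and *Degs1*, which encodes dihydroceramide desaturase (0.21, adjusted p = 2.16e-05 from limma), were also higher. *Tmem189*, encoding the plasmanylethanolamine desaturase, was lower (-0.44, adjusted p = 1.46e-08 from limma).

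Of the genes that make saturated chains, 6 of 8 were called higher and 1 lower, with a median log2 fold change of 0.29. *Acss2*, which makes acetyl-CoA from acetate, went from 3.19 ± 0.228 to 8.12 ± 0.327 CPM (SD, n = 3 each; 1.12, adjusted p = 3.83e-10 from limma). *Slc25a1*, the citrate carrier gene (0.79, adjusted p = 4.73e-11 from limma), *Acaca*, encoding acetyl-CoA carboxylase (0.50, adjusted p = 1.21e-08 from limma), and *Fasn*, encoding fatty acid synthase (0.31, adjusted p = 7.06e-07 from limma), were higher. *Fasn* read 163, 178 and 172 CPM in control against 214, 209 and 216 CPM in *Atgl* ECKO libraries, so its groups were apart by less than those of *Scd1*. *Acacb*, whose product makes the malonyl-CoA of mitochondria, was lower (-0.24, adjusted p = 0.00319 from limma).

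SREBP and LXR are transcription factors known to act on *Scd1*, *Fads* and *Elovl6* genes in mouse liver. Their genes and regulators were listed together with *Rxra*, *Rxrb*, *Mlx*, *Mlxip* and *Mid1ip1*. Of the 14 tested, 9 were called higher and 3 lower (*Rxra*, *Rxrb* and *Mlx*), with a median of 0.27. *Srebf1* read 34.5, 35.0 and 36.6 CPM in control against 45.5, 42.9 and 40.8 CPM in *Atgl* ECKO libraries (log2 fold change 0.28, standard error 0.04, adjusted p = 2.73e-05 from limma). *Insig1*, which retains SREBP with SCAP in the endoplasmic reticulum and is itself a target of it, was higher (0.55, adjusted p = 1.98e-09 from limma), as were *Mid1ip1*, a partner of acetyl-CoA carboxylase (0.78, adjusted p = 5.6e-10 from limma), and *Mlxip*, a glucose-responsive factor gene (0.52, adjusted p = 2.97e-08 from limma). *Nr1h3*, encoding LXR alpha, was low, at 1.08 ± 0.151 and 1.81 ± 0.107 CPM (SD, n = 3 each; 0.43, adjusted p = 0.000259 from limma), while *Nr1h2*, encoding LXR beta, had 27.1 ± 1.81 and 32.6 ± 1.42 CPM (SD, n = 3 each; 0.26, adjusted p = 0.000191 from limma). The receptor partner gene *Rxra* was lower (-0.34, adjusted p = 1.85e-06 from limma). It lies on chromosome 2, whose median was -0.23, and stood at -0.11 relative to it. The lower genes *Hacd1* and *Tmem189* lie there too, at -0.16 and -0.21 relative to that median. *Hsd17b12*, *Acss2* and *Nr1h3* of the same chromosome were higher.

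Of the PPAR genes, *Pparg*, the regulator of fat cell formation that also acts on lipid genes in ECs, read 19.9, 18.6 and 19.5 CPM in control against 5.97, 6.59 and 6.24 CPM in *Atgl* ECKO libraries (log2 fold change -1.49, standard error 0.05, adjusted p = 1.08e-12 from limma). This drop was of about the size of that of *Pnpla2*. *Ppard* and *Ppargc1b* were not called (0.08 and -0.14, adjusted p = 0.088 and 0.108 from limma).

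Peroxisomes shorten the very long chains that ELOVL enzymes make, and 6 of 8 tested genes of that path were called lower and 1 higher, with a median of -0.20. The thiolase and lipid carrier gene *Scp2* (-0.22, adjusted p = 0.000148 from limma) and the transporter gene *Abcd3* (-0.17, adjusted p = 0.000348 from limma) were lower. Counted among the 6 is the transporter gene *Abcd2*, at 2.80, 2.81 and 2.64 CPM in control against 0.491, 0.616 and 0.382 CPM in *Atgl* ECKO libraries, which passed the filter only through the control libraries and so is given without a test. The calls on *Hsd17b4* (-0.10, adjusted p = 0.0278 from limma) and *Acaa1a* (0.12, adjusted p = 0.0469 from limma) were lost under several alternatives.

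Enzymes that make acyl-CoA of unsaturated chains or place such chains into phospholipids were called higher in 3 and lower in 3 of 8 tested genes. *Mboat2*, an oleoyl-preferring lysophospholipid acyltransferase gene, read 13.7, 13.8 and 12.8 CPM in control against 60.4, 58.5 and 59.9 CPM in *Atgl* ECKO libraries (log2 fold change 2.07, standard error 0.04, adjusted p = 8.93e-16 from limma). It lies on chromosome 12, whose median was 0.36, and was higher by 1.71 relative to it. *Lclat1* (-0.49, adjusted p = 4.9e-09 from limma) and *Mboat7* (-0.29, adjusted p = 8.44e-06 from limma), acyltransferase genes of phosphatidylinositol and cardiolipin, were lower, and *Lpcat3*, which prefers arachidonate and linoleate, was not called (0.07, adjusted p = 0.0834 from limma).

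**Figure D5:**
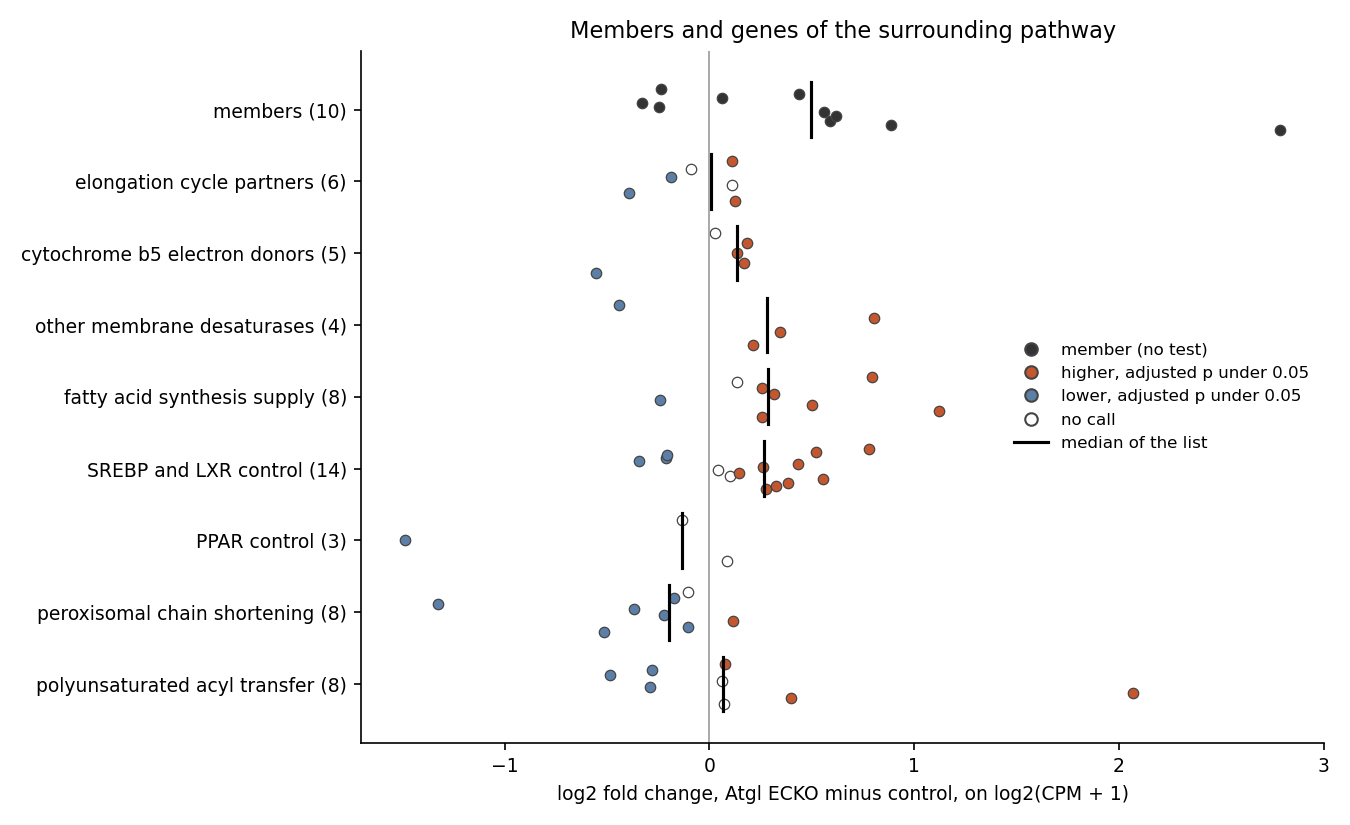
Log2 fold changes (*Atgl* ECKO minus control, on log2(CPM + 1)) of the 10 members and of the 56 tested genes of 8 surrounding lists, with the number of tested genes in parentheses. Points are genes, colored by limma's adjusted p except for the members. Black bars are medians, 0.50 for the members and, among the 8 lists, from -0.20 for peroxisomal chain shortening to 0.29 for fatty acid synthesis supply.

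The genes whose profile over the 6 libraries was nearest to that of *Scd1* were searched among 9094 tested genes averaging 10 CPM or more, by Euclidean distance between log2(CPM + 1) values centered on their own mean. They were *Emp2*, a membrane protein gene (distance 0.15, 2.09 ± 0.141 and 20.8 ± 0.495 CPM, SD, n = 3 each), the tetraspanin gene *Tspan8* (0.19, 3.89 ± 0.154 and 30.2 ± 1.09 CPM, SD, n = 3 each), and *Slc27a1*, which encodes the fatty acid transport protein FATP (0.21, 11.3 ± 0.289 and 79.5 ± 5.28 CPM, SD, n = 3 each). They lie on chromosomes 16, 10 and 8. Of them, *Emp2* and *Tspan8* reached the mean of 10 CPM only through the *Atgl* ECKO libraries. Nearest to *Elovl4*, the member with the lowest fold change, were *Maml2*, a Notch coactivator gene (0.07), *Fam193a* (0.09) and *Mier3* (0.10). Such likeness over 6 libraries of 2 groups mostly restates the difference between the groups.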

How the data were processed

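RNA-Seq was done on 6 libraries of LECs. The authors used STAR for alignment and Partek Flow for quantification, and deposited CPM, each with an offset of 0.0001 CPM. Their versions are not stated, and the build they name, hg19, is human while the symbols are those of mouse. A deposited table of z-scores and 1 stray cell were not used, and 21 of 20430 lines with a date in place of a symbol were left out. Depth was estimated from the spacing of the low values, which is the CPM of 1 read.

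The 12837 genes averaging 1 CPM or more were fitted with limma 3.58.1 in R 4.3.3 (eBayes with trend) on log2(CPM + 1), with a term for genotype, Benjamini-Hochberg adjustment over all of them and a threshold of 0.05. The procedure was tested on simulated data. The added 1 CPM draws fold changes of low genes toward 0. Members and lists were chosen with earlier results of these data known. Genes named were all members, their paralogues, *Pnpla2*, the 3 genes of each list with the smallest adjusted p and others whose role the path needs, the 3 nearest profiles of *Scd1* and *Elovl4*, and the nearest tested neighbors of the *Scd* and *Fads* genes. Of the genes this rule names, 2 are not reported here. Chromosomes came from GENCODE M21 by symbol. Alternatives were 2 other pseudocounts, 2 other filters, 2 rescalings, limma without trend or moderation, a replicate block, chromosome medians removed, and each library left out.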

Additional observations from a re-analysis of the deposited data

How the results depend on the processing

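The directions of all 10 members held under all the alternatives run, with log2 fold changes of 2.38 to 2.86 for *Scd1*, 0.48 to 0.92 for *Scd2*, 0.15 to 0.64 over the *Fads* genes, 0.42 to 0.52 for *Elovl6*, 0.04 to 0.16 for *Elovl5*, -0.26 to -0.14 for *Elovl1*, -0.40 to -0.23 for *Elovl4* and -0.28 to -0.12 for *Elovl7*. Between 6 and 7 members were called higher and 2 to 3 lower, the calls that changed being those of *Elovl5* and *Elovl7*, and *Elovl4* has no value with the filter at a mean of 5 CPM. In the pathway lists 24 to 31 genes were called higher and 15 to 20 lower. Over all genes 3687 to 5208 were called higher and 4028 to 5189 lower. Removal of chromosome medians turned the direction of *Hacd2* (-0.15), *Hacd4* (0.010), *Hsd17b4* (0.022), *Agpat3* (-0.13) and *Ndufb8* (-0.21), by its own construction. With the replicate number as a replicate block, 6 members were called higher and 3 lower, and over all genes 4367 higher and 4602 lower. Libraries with the same number deviated with correlations of 0.09, 0.09 and -0.15, and not every library correlated best with its own number. No pairing by number was thus visible, although such weak correlations cannot exclude it. A count test on recovered reads was not run, because only 76.1% to 77.0% of the low values came out as whole reads within 0.02 of a read. The libraries of a genotype are 3, and *Elovl4*, *Elovl7* and the paralogues are the members and relatives on which depth bears most.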
